A study of Mus musculus with 12 samples.

Results

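The Hox genes encode homeodomain transcription factors and lie side by side in 4 clusters, Hoxa, Hoxb, Hoxc and Hoxd, on mouse chromosomes 6, 11, 15 and 2. Genes at one end of a cluster, with low paralogue numbers, are used towards the head of the later embryo, and genes at the other end, with high numbers, towards the tail. The clusters are kept silent by Polycomb proteins and opened in order from gastrulation on by signals that include retinoic acid, long after the cleavage stages. Members were the genes whose probe sets carried a single Hoxa, Hoxb, Hoxc or Hoxd symbol followed by a number in the platform annotation. This gave 33 genes on 48 probe sets, of 18163 genes on 44937 probe sets in all: 9 of Hoxa, 9 of Hoxb, 7 of Hoxc and 8 of Hoxd. Each gene was read on the probe set with the highest mean log2(intensity + 16) over the arrays, and the other 15 probe sets, which belong to 11 genes, served as a check.

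The arrays, 12 in 4 groups of 3, were hybridised with RNA of mid-2-cell mouse embryos to ask what changes after knockdown of Oct4 (Pou5f1, a POU transcription factor of pluripotent cells) or of Ccna2 (cyclin A2, a regulator of the cell cycle). Embryos came from superovulated wild type F1 (C57BL6xDBA/2) females aged 3 to 5 weeks, mated with wild type males, and pools from 3 to 6 females were collected at the stage of 2 pronuclei. Oct4-MO embryos received a cytoplasmic injection of 0.6 mM of a morpholino, a synthetic antisense oligonucleotide that blocks translation, against the start site of Oct4, and Ccna2-MO embryos received a morpholino against Ccna2. The labels give 0.6 mM for the latter too, while the study's methods give a higher concentration, and the dose of Ccna2-MO is thus not settled here. Each knockdown had uninjected embryos of the same collection, cultured in parallel, as its own control, so that injection and knockdown cannot be told apart within an experiment. A pool of 20 embryos gave the RNA of 1 array, and the RNA of about 10 of them went through 2 rounds of amplification; the pools are the replicates, so that p-values measure the spread between these pools. In pools, fewer cells with a transcript and less transcript per cell cannot be told apart.

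The transcripts of the morpholino targets were present in every group. Pou5f1 was 2289, 1825 and 2466 in Oct4-MO embryos and 1798, 1859 and 2112 in their uninjected controls (log2 difference 0.18, adjusted p = 0.77 from limma). The brighter of the probe sets of Ccna2 was 3183, 3205 and 4398 in Ccna2-MO embryos and 3949, 3444 and 4222 in their controls (log2 difference -0.12, adjusted p = 0.76 from limma), and on the dimmer probe set the difference was 0.60 (adjusted p = 0.5). A morpholino need not change the level of its mRNA, so these values do not test the knockdown. All 8 measured genes of a list of oocyte and early embryo genes lay above 100 in at least 1 group.

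Values are dChip-normalized intensities on a linear scale. An intensity of 100 was taken as the background level, and a gene counted as above it in a group when at least 2 of the 3 arrays exceeded it. By this rule 2 of the 33 Hox genes (6.06%) were above background in Oct4-MO embryos, Hoxa3 and Hoxa7. In the uninjected embryos of the Oct4 experiment, in Ccna2-MO embryos and in the uninjected embryos of the Ccna2 experiment it was Hoxa7 alone (3.03% each). Over all 18163 genes the shares above 100 were 35.8, 36, 36.3 and 36% in the same order. Hoxb, Hoxc and Hoxd had no member above 100 by this rule in any group. No table of detection calls was used here, and the brightness of a probe set also depends on its probes, so the counts describe probe sets and not amounts of mRNA.

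**Figure D1:**
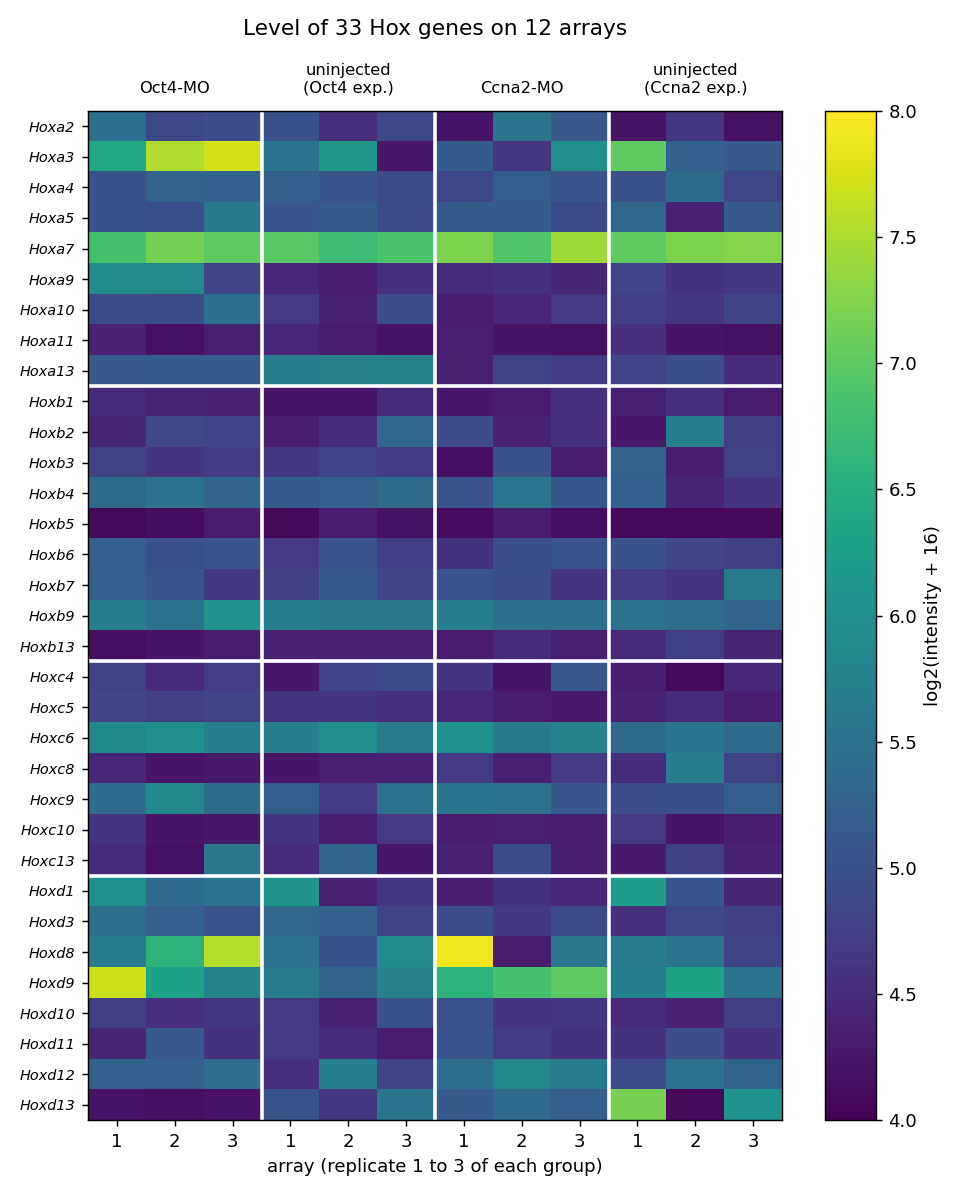
Log2(intensity + 16) of the 33 Hox genes (rows, by cluster and paralogue number) on the 12 arrays (columns, by group). Hoxa7 is bright on all 12 arrays, while Hoxa3, Hoxd8, Hoxd9 and Hoxd13 are bright on some arrays only and most rows stay dark throughout.

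Most members stayed dim everywhere. Of the 33 genes, 28 never exceeded 100 on any of the 12 arrays, 26 never exceeded 50, and 6 stayed under 16 on all arrays. By their mean over the 12 arrays, 19 lay under 16, 13 between 16 and 100, and 1 above 100. The median Hox gene had an intensity of 18.8 in Oct4-MO embryos, 12.2 in their uninjected controls, 11.7 in Ccna2-MO embryos and 12.9 in the uninjected controls of that experiment, against 48.2, 46.9, 47.1 and 44.3 for the median of all genes. Hoxb5, of the central paralogue groups, had values from 1.0 to 4.07. In Hoxb the gene means ran from 1.98 to 32.6, and Hoxb9 was at the top. In Hoxc they ran from 5.41 (Hoxc10) to 37.4 (Hoxc6), in Hoxd from 9.5 (Hoxd10) to 67.5 (Hoxd9), and in Hoxa from 3.74 (Hoxa11) to 118 (Hoxa7).

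The 2 genes above 100 on at least 2 arrays of a group, Hoxa3 and Hoxa7, had low and middle paralogue numbers. Hoxd9 and Hoxd13, with high numbers, exceeded 100 on single arrays only. The mean of Hoxd9 over the 12 arrays (67.5) was above that of Hoxa3 (62.4). Of the 10 genes of paralogue groups 1 to 4 and the 9 of groups 5 to 8, 1 each was above 100 in some group, and of the 14 genes of groups 9 to 13 none was. The medians of the gene means were 14.6, 15.4 and 12.7. None of the 15 other probe sets of these genes exceeded 100 on any array, and their highest value was 56.5. Probe sets that carry 2 Hox symbols (Hoxd4 with Hoxd3, Hoxb8 with Hoxb7) or the antisense genes Hoxa11os, Hoxd3os1 and Hoxb5os are no members, and they reached at most 26.9.

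Compared with other gene groups on their mean over the 12 arrays, 14 of 33 Hox genes (42.4%) exceeded 16, 4 (12.1%) exceeded 50 and 1 (3.03%) exceeded 100. Of 57 other homeobox genes of later development the shares were 64.9, 21.1 and 10.5%, and of 38 olfactory receptor genes, which are used in sensory neurons, 18.4, 5.26 and 2.63%. Over all genes they were 74.1, 49.6 and 37.5%.

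**Figure D2:**
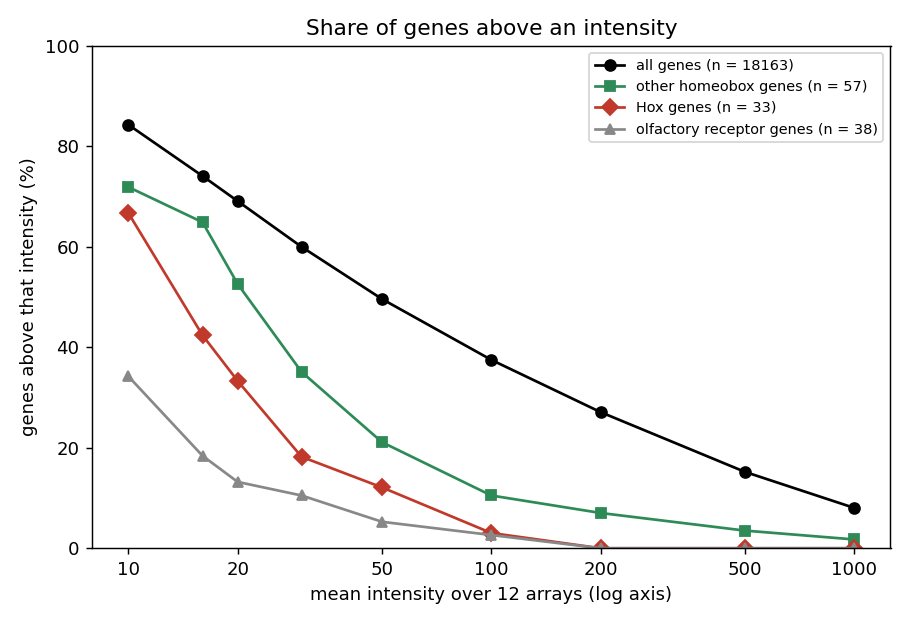
Share of genes (%) whose mean intensity over 12 arrays exceeded the level on the x axis (log axis), for all genes, other homeobox genes, Hox genes and olfactory receptor genes. The Hox curve (1 of 33 genes above 100) lies under those of all genes and of the other homeobox genes, and near that of the olfactory receptors at 100 (2.63%).

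Most genes around the clusters were above background. The 3 nearest protein-coding genes on each side of each cluster in RefSeq order make 24 genes, of which 22 were measured. In at least 1 group 18 of these (81.8%) were above 100, while 10475 of all 18163 genes were above it in no group. Next to Hoxa, Skap2, a signalling adaptor, had a mean intensity of 1487, and 5 of 6 neighbours passed 100, all but Evx1, a homeobox gene linked to Hoxa. Next to Hoxb 5 of 6 passed, all but Ttll6, and Calcoco2, an autophagy receptor, had a mean of 2021. Next to Hoxc 5 of 6 passed, all but Atf7, and Hnrnpa1, an RNA-binding protein, had a mean of 3137. Next to Hoxd 3 of 4 measured neighbours passed, all but Evx2, and Atp5g3, a subunit of ATP synthase, had a mean of 1125. Evx1 and Evx2, homeobox genes that border the posterior ends of Hoxa and Hoxd, had means of 6.43 and 29.8.

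**Figure D3:**
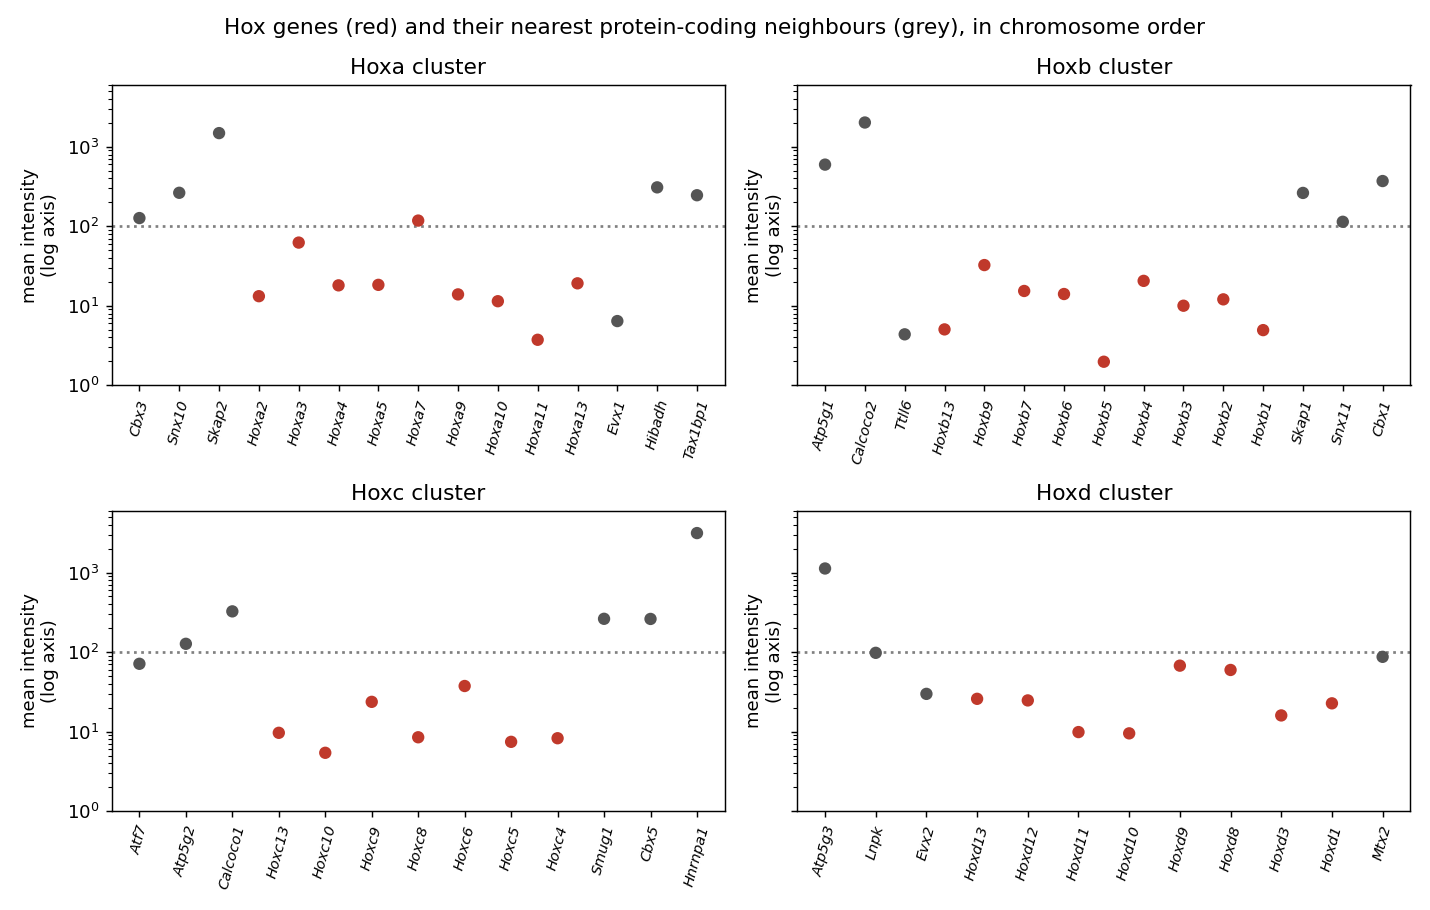
Mean intensity over 12 arrays (log axis) of the Hox genes (red) and of the measured protein-coding neighbours (grey) in chromosome order, with the level of 100 dotted. Of 22 neighbours 18 passed 100 in some group, and among the 33 Hox genes the only mean above the line is that of Hoxa7 (118).

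The start regions of some genes that the values turn on are shown here to place them. RefSeq windows of 250 bases before to 50 bases after the start (GRCm38.p6) were at hand for 19 of the 33 members, in 21 windows. The 30 bases just before the start are printed 5′ to 3′ on the gene's strand, with each CpG in capitals. Hoxa7 was the member above 100 in all groups, Hoxa3 the member above 100 in Oct4-MO embryos alone, and Hoxa9 and Hoxa13 those with the smallest p-values.
Hoxa7, chr6:52218574-52218603, minus strand: agagaaCGaggctgtgcttagcaagcacac
Hoxa3, chr6:52213068-52213097, minus strand: ggctgcCGaagCGacagctgtcagagaggc
Hoxa9, chr6:52227371-52227400, minus strand: aaaaaaagtggggtgatagaggaataggag
Hoxa13, chr6:52260881-52260910, minus strand: ggCGgcCGcctggCGCGacccCGcagggCG

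The whole windows differ in base composition. The Hoxa7 window had 9 CpG sites and a GC content of 55.7%, that of Hoxa3 20 and 64%, that of Hoxa9 4 and 49.7% and that of Hoxa13 45 and 81.0%. Over the 21 windows the median was 15 CpG sites and 58% GC, against 7 and 52.7% over all 32851 windows of the table, and 17 of 21 (81%) had over 50% GC, against 59.5%. The octamer ATGCAAAT, the motif of Oct4 and other POU proteins, was searched on both strands and stood in 0 of 21 windows, against 1.74% of all. The variant ATGCTAAT stood in 1 (4.76%, against 0.919%), that of Hoxb1, a gene of the hindbrain, with the motif in capitals.
Hoxb1, chr11:96365568-96365595, plus strand: tgtctttgtcATGCTAATgattgggggg
Hoxb1 itself had values from 2.55 to 7.7 on the 12 arrays. TGATTNAT, a site that Hox proteins can bind with their partner Pbx, was searched on both strands and stood in 2 windows (9.52%, against 3.22%), those of Hoxa2 and Hoxd11, in both cases read here on the other strand.
Hoxa2, chr6:52164925-52164952, minus strand: acttttttggATCAATCAaacagacagt
Hoxd11, chr2:74682240-74682267, plus strand: taccaccagaATCAATCAagatgaattg
TATAAA, the core of a TATA box, was searched on the sense strand and stood in 1 window (4.76%, against 8.32%), that of Hoxd13. These matches describe the letters only.

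Hoxa7, a gene of the trunk, exceeded 100 on 10 of the 12 arrays. It was 98.5, 128 and 113 in Oct4-MO embryos and 109, 91.6 and 101 in their uninjected controls, and the groups overlapped. It was 132, 104.5 and 156 in Ccna2-MO embryos and 114, 133 and 136 in the controls of that experiment, which overlapped as well. The log2 difference was 0.14 (SE 0.24, adjusted p = 0.94 from limma) for Oct4-MO and 0.02 (SE 0.24, adjusted p = 0.99) for Ccna2-MO. All 6 arrays of the Ccna2 experiment exceeded 100, against 4 of the 6 of the Oct4 experiment. The 3 uninjected arrays of the Oct4 experiment lay under the 3 uninjected arrays of the Ccna2 experiment.

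**Figure D4:**
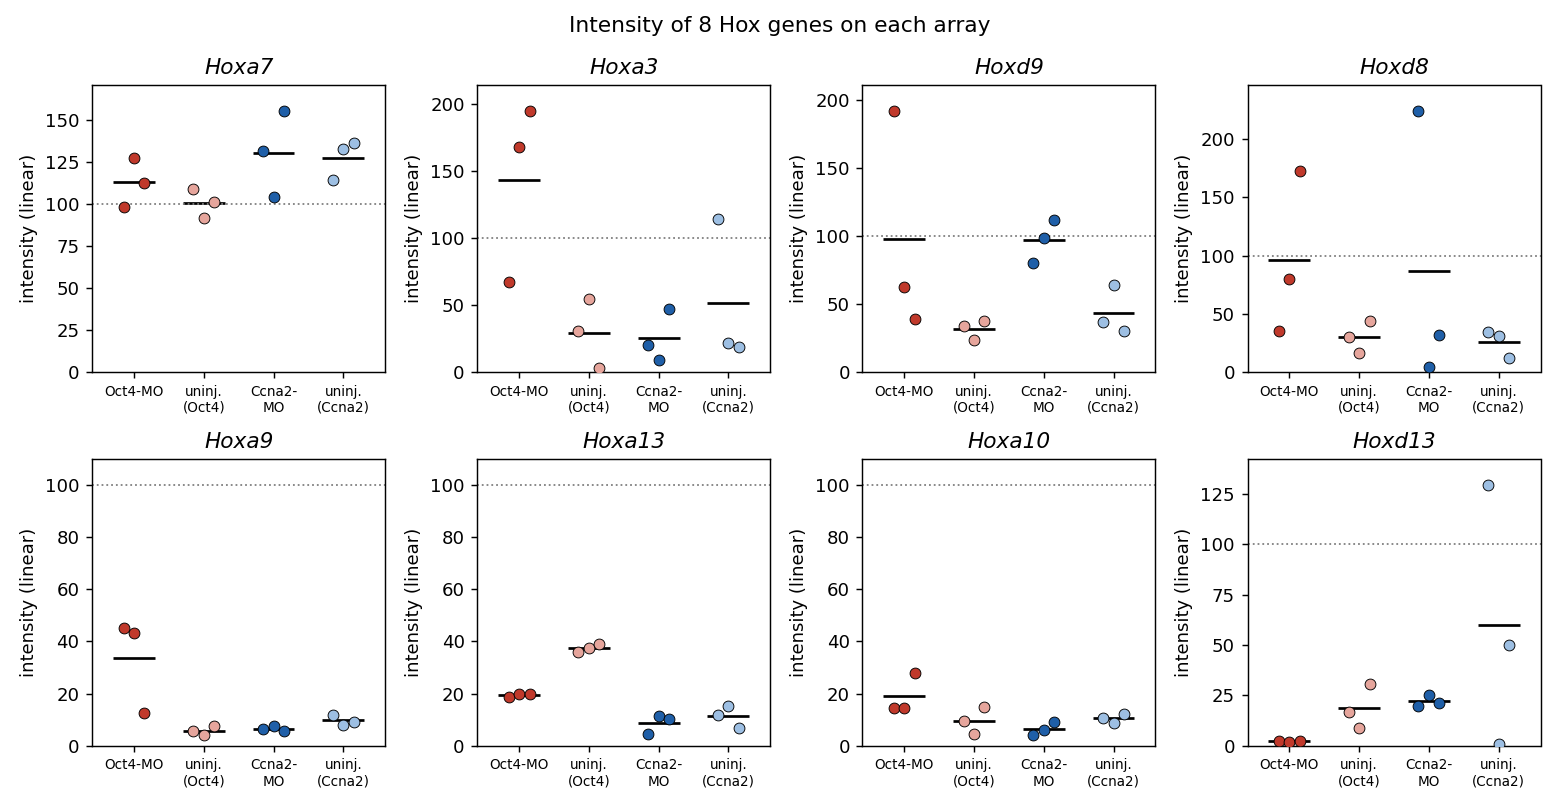
Intensity (linear scale) of 8 Hox genes on each array (points) with the group mean (bar) and the level of 100 (dotted). Hoxa7 lies near or above 100 in all groups, Hoxa3, Hoxd8 and Hoxd9 are high on some arrays, and Hoxa9, Hoxa10 and Hoxa13 stay under 100 on all 12 arrays.

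For each comparison, limma was fitted to log2(intensity + 16) on all probe sets, with p-values adjusted over all of them by Benjamini-Hochberg. Differences below are on that scale, which understates those of dim genes. No Hox gene passed an adjusted p of 0.05 in Oct4-MO embryos against their controls, where 0.0936% of all genes passed. At an unadjusted p under 0.05 there were 5 of 33 (15.2%), against 10.6% of all genes and 5.17% of the 10475 genes that were above 100 in no group. Hoxa3, Hoxa9, Hoxa10 and Hoxd9 were higher in Oct4-MO embryos and Hoxa13 lower. In 7 of 33 (21.2%) the groups did not overlap, against 18.8% of all genes. Hoxa3, Hoxa9, Hoxc5 and Hoxd9 were higher, and Hoxa13, Hoxb13 and Hoxd13 lower. Every value of Hoxc5 (log2 difference 0.22, SE 0.11) and Hoxb13 (-0.15, SE 0.11) in these groups lay under 16.

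Hoxa3, which patterns the hindbrain and the pharyngeal arches, had the largest difference. Its intensity was 67.4, 168 and 195 in Oct4-MO embryos and 30.4, 54.7 and 3.04 in their uninjected controls, so that every injected array lay above every control. The means were 144 ± 67.3 and 29.4 ± 25.8 (SD, n = 3 each). The log2 difference was 1.90 (SE 0.61, unadjusted p = 0.0087, adjusted p = 0.32 from limma). In Ccna2-MO embryos Hoxa3 was 20.4, 8.88 and 46.8, and in their controls 114, 21.4 and 18.7, where replicate 1 stood above the rest (log2 difference -0.52, SE 0.61, adjusted p = 0.77). The 2 changes differed by 2.42 (SE 0.86, adjusted p = 0.68).

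The other probe sets of Hoxa3 were dimmer. The next brightest read 45.9, 49.6 and 31.9 in Oct4-MO embryos and 15.9, 30.5 and 8.53 in their controls, again without overlap (log2 difference 0.81, SE 0.35, unadjusted p = 0.037, adjusted p = 0.50 from limma). On this probe set too, replicate 1 of the uninjected embryos of the Ccna2 experiment (35.6) stood above the rest of its group (6.03 and 14.7). The other two never exceeded 18.9, and their log2 differences were -0.08 (SE 0.25) and 0.15 (SE 0.16).

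Hoxa9, a posterior gene also known from blood stem cells, had the smallest adjusted p of the members in this comparison. Its intensity was 45.1, 43.2 and 12.6 in Oct4-MO embryos and 5.74, 4.11 and 7.58 in their controls. The groups did not overlap, but every value lay under 100, and replicate 3 of Oct4-MO lay near the controls. The log2 difference was 1.11 (SE 0.25, unadjusted p = 0.00071, adjusted p = 0.14 from limma). In Ccna2-MO embryos Hoxa9 was 6.34, 7.75 and 5.51 and in their controls 11.9, 8.14 and 9.11, all of them under 16. A second Hoxa9 probe set read 6.05, 5.9 and 9.4 in Oct4-MO embryos and 4.23, 4.61 and 7.36 in their controls (log2 difference 0.11, SE 0.31), and so did not separate the groups. Hoxa9 passed in only 2 of the 24 alternatives that measured it in this comparison, and the adjusted p ran up to 0.5. It passed with all 6 uninjected arrays as controls (adjusted p = 0.039 from limma) and without Oct4-MO replicate 3 (adjusted p = 0.011), the array nearest the controls.

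Hoxa10, the neighbour of Hoxa9 that acts in the uterus and the hind limb, was 14.5, 14.6 and 27.9 in Oct4-MO embryos and 9.53, 4.62 and 14.7 in their controls, which overlapped (log2 difference 0.45, SE 0.20, adjusted p = 0.51 from limma). Hoxa13, the gene of digits and the genital tubercle at the posterior end of Hoxa, went the other way. It was 18.6, 20.0 and 19.8 in Oct4-MO embryos and 35.8, 37.4 and 38.9 in their controls (log2 difference -0.59, SE 0.20, unadjusted p = 0.01, adjusted p = 0.34 from limma), and the difference was -0.10 (adjusted p = 0.83) with all 6 uninjected arrays as controls. Its replicates lay close together in both groups, at dim values. Hoxd13, its paralogue, was 2.29, 1.94 and 2.31 in Oct4-MO embryos and 16.9, 8.83 and 30.6 in their controls (log2 difference -0.89, SE 0.56, adjusted p = 0.7), and is described after its values were seen, like Hoxd8.

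Hoxd9, a gene of the forelimb and trunk, was 192, 62.3 and 39.3 in Oct4-MO embryos and 33.6, 23.3 and 37.6 in their controls, where the lowest injected array lay just above the highest control. The log2 difference was 1.03 (SE 0.43, unadjusted p = 0.031, adjusted p = 0.48 from limma), and 0.48 without Oct4-MO replicate 1. It was 80.2, 98.5 and 112 in Ccna2-MO embryos and 37, 64 and 30.1 in their controls, again without overlap (log2 difference 0.95, SE 0.43, unadjusted p = 0.045, adjusted p = 0.34). Hoxd9 was thus higher on every injected array than on any control of its own experiment in both knockdowns, each time short of the threshold. Hoxd8, next to it, was 35.2, 79.6 and 173 in Oct4-MO embryos against 30.2, 16.3 and 44.0, and 224, 3.92 and 32.0 in Ccna2-MO embryos against 34, 30.6 and 12.3. Single arrays stood far above the rest of their group, and the log2 differences were 1.12 (SE 0.73, adjusted p = 0.72 from limma) and 0.60 (SE 0.73, adjusted p = 0.78).

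**Figure D5:**
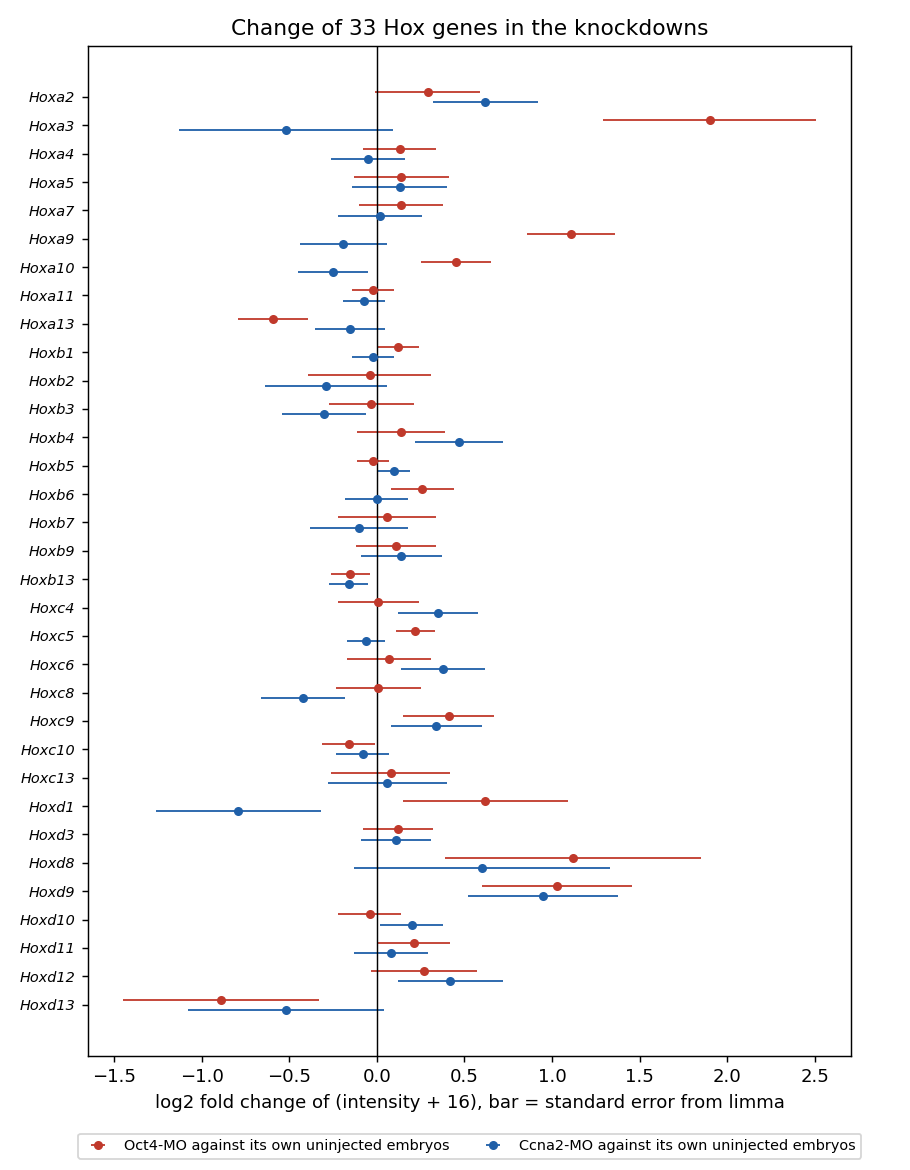
Log2 difference of (intensity + 16) between knockdown and own uninjected embryos for the 33 Hox genes, Oct4-MO in red and Ccna2-MO in blue, with bars of 1 standard error from limma. Hoxa3 (1.90), Hoxd8 (1.12), Hoxa9 (1.11) and Hoxd9 (1.03) lie furthest to the right in Oct4-MO, Hoxd9 (0.95) in Ccna2-MO, and none of the 33 passed the adjusted threshold in either.

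Over the whole set, 24 of 33 Hox genes (72.7%) had a difference above 0 in Oct4-MO embryos, against 51.5% of all genes. The median was 0.12, against 0.01 over all genes and 0.04 over the genes above 100 in no group. The differences ran from -0.89 (Hoxd13) to 1.90 (Hoxa3), and 26 lay within 0.5 of 0. By cluster, 7 of 9 Hoxa, 5 of 9 Hoxb, 6 of 7 Hoxc and 6 of 8 Hoxd genes lay above 0. The count above 0 was 20 without Oct4-MO replicate 3 and 28 without Oct4-MO replicate 2. With each array centred on the median of the upper part of the probe sets it was 29. The median over all genes was then 0.07, against 0.01 in the main fit.

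The summed intensity of the 33 genes was 897, 904 and 1006 on the Oct4-MO arrays and 620, 594 and 605 on their controls, with no overlap. Without Hoxa3 the sums were 830, 736 and 811 against 590, 539 and 602, and without the 5 members that exceeded 100 on any array (Hoxa3, Hoxa7, Hoxd8, Hoxd9 and Hoxd13) they were 502, 464 and 484 against 400, 399 and 389. The groups stayed apart with quantile normalization (858 to 1041 against 584 to 609) and with median centring (877 to 1091 against 586 to 637). In the Ccna2 experiment the sums were 830, 632 and 710 in injected and 795, 621 and 556 in uninjected embryos, and overlapped. Bright members weigh most in such a sum, and no test was made of it.

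Some bright homeobox genes outside the clusters, and Cyp11a1 of the cumulus and granulosa list, were also higher on the Oct4-MO arrays. The summed intensity of the 57 other homeobox genes was 4163 to 4733 in Oct4-MO embryos and 3049 to 3707 in their controls. Members above 100 made most of this gap, such as Irx3 (means 273 and 63.6), Gbx2 (322 and 134) and Emx2 (291 and 128). The median log2 difference of the list was 0.05, against 0.01 over all genes and 0.04 over the genes above 100 in no group. At an unadjusted p under 0.05, 6 of the 57 were higher and 0 lower, against 10.6% of all genes in either direction. The 10 measured cumulus and granulosa markers summed to 384 to 619 in Oct4-MO embryos and 225 to 311 in their controls. Of those 10, Cyp11a1, a steroidogenic enzyme, was the only one above 100 in any group. Its means in injected and control embryos were 331 and 131 in the Oct4 experiment (log2 difference 1.24, SE 0.53). In the Ccna2 experiment they were 216 and 82 (log2 difference 1.65, SE 0.53). In the Oct4 experiment Star had means of 59.8 and 45.9 and Vcan of 19.2 and 20.5. Amh had means of 23.9 and 2.36, with a high value on Oct4-MO replicate 3 alone (67.45). The cumulus markers Tnfaip6 (9.03 and 18.9) and Has2 (12.5 and 19.7) and the granulosa gene Fshr (2.66 and 4.71) had lower means in Oct4-MO embryos. Those of the cumulus marker Ptx3 (12.4 and 12) and the granulosa genes Inha (4.79 and 2.78) and Foxl2 (4.16 and 2.7) were slightly higher. These means were all under 20. The part of the homeobox and marker genes in the Hox result was not tested. The 5 oviduct markers summed to 740 to 1101 and 794 to 1183 in the same order, and the 2 measured blood markers to 15 to 30 and 18 to 28. The 38 olfactory receptor genes summed to 590 to 730 in Oct4-MO embryos and 539 to 650 in their controls.

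In Ccna2-MO embryos no Hox gene passed an adjusted p of 0.05, where 0.93% of all genes passed with limma. Hoxd9 was the only member at an unadjusted p under 0.05 (3.03% of 33), against 16.7% of all genes and 7.46% of the genes above 100 in no group. The groups did not overlap for 4 members (12.1%), against 19.2% of all genes: Hoxb5, Hoxc6 and Hoxd9 were higher and Hoxa9 lower. Hoxc6, a thoracic gene, was 50.7, 33.3 and 38.8 in injected and 25.9, 31.1 and 25.2 in uninjected embryos (log2 difference 0.38, SE 0.24, adjusted p = 0.51 from limma). Hoxa2, which patterns the hindbrain, was 2.65, 30.7 and 18.8 in injected and 2.56, 8.93 and 2.07 in uninjected embryos (log2 difference 0.62, SE 0.30, adjusted p = 0.38), and with the pair as a block it was a second member at an unadjusted p under 0.05 in limma. Hoxb4, known from blood stem cells, was 16.4, 31.4 and 18.3 against 22.0, 5.59 and 8.17 (log2 difference 0.47, SE 0.25, adjusted p = 0.43), and these groups overlapped.

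Of the 33 members, 16 had a difference above 0 in Ccna2-MO embryos and 17 below, with a median of -0.00 (0.03 over all genes), and 19 lay above 0 without replicate 1 of the uninjected embryos. The range was -0.79 (Hoxd1) to 0.95 (Hoxd9), and 27 genes lay within 0.5 of 0. Hoxd1, an anterior gene of Hoxd, was 4.2, 7.95 and 6.01 in injected and 60.0, 17.6 and 5.6 in uninjected embryos, where 1 array was high. Set side by side, 14 genes had a difference above 0 in both knockdowns, 7 below 0 in both, and 12 had opposite signs. The knockdowns have separate controls but share an estimate of the spread.

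The difference between the 2 changes, which asks whether a gene moved otherwise in Oct4-MO than in Ccna2-MO embryos, passed the adjusted threshold for no Hox gene and for 0% of all genes with limma. At an unadjusted p under 0.05 there were 3 members (9.09%), against 7.11% of all genes: Hoxa3 (2.42), Hoxa9 (1.30, SE 0.35, adjusted p = 0.58 from limma) and Hoxa10 (0.70), in each case more positive in Oct4-MO embryos. This test did not separate the knockdowns for any Hox gene.

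The uninjected embryos of the 2 experiments were compared with each other to show how far groups of separate experiments differ without any injection. Differences between experiments and between pools cannot be told apart in this comparison. No Hox gene passed between them, against 0.116% of all genes with limma. At an unadjusted p under 0.05 there were 2 members (6.06%), against 12% of all genes. Hoxa13 was higher in the uninjected embryos of the Oct4 experiment, where it was 35.8, 37.4 and 38.9, than in those of the Ccna2 experiment, where it was 12, 15.2 and 6.73 (log2 difference 0.98, SE 0.20, unadjusted p = 0.00028, adjusted p = 0.099 from limma). This is larger than its difference in Oct4-MO embryos (-0.59). Hoxc8, a gene of the thorax, was 2.87, 4.51 and 4.53 and 6.91, 35.5 and 11.3 in the same order (log2 difference -0.67, SE 0.24, adjusted p = 0.3 from limma, and -0.33 without replicate 2 of the latter). The groups did not overlap for 8 members (24.2%), 4 in each direction, against 22.7% of all genes.

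The machinery that acts on and with Hox proteins was present on the arrays to a different degree. Of the cofactor genes that bind DNA together with Hox proteins, 8 of 9 were measured and 4 were above 100 in some group. For comparison, 10475 of all 18163 genes were above 100 in no group. None of the cofactor genes passed in either knockdown. Meis2 had means of 992 ± 154 in Oct4-MO embryos and 874 ± 123 in their controls, and 1789 ± 486 in Ccna2-MO embryos and 1028 ± 195 in theirs (SD, n = 3 each; log2 differences 0.18, adjusted p = 0.89, and 0.77, adjusted p = 0.11 from limma). Pknox1, a relative of Meis, was 136, 110 and 38.0 in Oct4-MO embryos and 162, 246 and 197 in their controls, and 66.7, 156 and 71.6 in Ccna2-MO embryos and 310, 327 and 315 in theirs. It was lower on all injected arrays in both experiments, with log2 differences of -1.08 (SE 0.40, adjusted p = 0.40 from limma) and -1.63 (SE 0.40, adjusted p = 0.084). The 8 ParaHox, Cdx and Evx genes, the closest relatives of the clusters and among them regulators of Hox genes, had none above 100. Cdx2, a gene of the trophectoderm, had means of 41.9 and 23.0 in the Oct4 experiment (log2 difference 0.55, SE 0.24, adjusted p = 0.50).

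Of 16 measured genes of retinoic acid signalling, which opens the clusters later, 6 (37.5%) were above 100 in some group. Among all 18163 genes, 10475 were above 100 in none. Crabp2, a carrier of retinoic acid in the cell, was 192, 286 and 129 in Oct4-MO embryos and 60.5, 67.9 and 68.0 in their controls, without overlap (log2 difference 1.36, SE 0.34, adjusted p = 0.18 from limma). Cyp26a1, which degrades retinoic acid, was 35.4, 41.8 and 15.8 against 5.59, 6.82 and 3.24 (log2 difference 1.11, SE 0.26, adjusted p = 0.15). These were the 2 of 16 genes of the list at an unadjusted p under 0.05 in this comparison, against 10.6% of all genes. In Ccna2-MO embryos 1 was higher and 2 lower at that level, against 16.7% of all genes, and Rxrb, a retinoid receptor, had the smallest adjusted p (log2 difference -1.80, SE 0.41, adjusted p = 0.07).

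Most, but not all, regulators of chromatin at the clusters were above 100. Of 27 measured Polycomb genes 20, and of 12 Trithorax and H3K27 demethylase genes 10, were so in some group, against 2 of the 33 Hox genes. The Trithorax genes Kmt2a (group means 36.3 to 48.7) and Men1 (40.8 to 85.1) were not, nor was the Polycomb gene Ring1 (6.48 to 39.2). In Oct4-MO embryos none of either list passed, and the medians of the differences were -0.01 and -0.08. In Ccna2-MO embryos Mtf2, a Polycomb-like protein that guides PRC2, fell (log2 difference -1.08, SE 0.18, limma's adjusted p = 0.030, and 0.056 in the blocked fit of pairs), and Dpy30, a subunit of the H3K4 methyltransferase complexes, rose (log2 difference 0.84, SE 0.15, limma's adjusted p = 0.035, blocked 0.049). Mtf2 was 1221, 1232 and 964 in Oct4-MO embryos and 2148, 1573 and 2029 in their controls (log2 difference -0.74, SE 0.18, adjusted p = 0.17). Of 4 other measured regulators, 2 were above 100, and none passed in either knockdown. Gmnn, which encodes geminin, a replication inhibitor that can bind Hox proteins, had log2 differences of -0.34 (SE 0.14, adjusted p = 0.48) and -0.30 (SE 0.14, adjusted p = 0.35).

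Among the 57 other homeobox genes, 8 were above 100 in some group. Lhx8, an oocyte factor, rose in Ccna2-MO embryos (log2 difference 1.34, SE 0.24, limma's adjusted p = 0.035, blocked 0.063), and none passed in Oct4-MO embryos. Irx3 was 349, 332 and 138 in Oct4-MO embryos and 5.68, 122 and 63.5 in their controls (log2 difference 2.12, SE 0.59, adjusted p = 0.23 from limma). Among the neighbours of the clusters, none passed in either knockdown, and 5 of 22 were higher and 0 lower at an unadjusted p under 0.05 in Oct4-MO embryos, against 10.6% of all genes in either direction. Between the uninjected groups Atp5g1, a neighbour of Hoxb that encodes an ATP synthase subunit, was lower in the Oct4 experiment (means 280 and 1041, log2 difference -1.83, SE 0.21, adjusted p = 0.0079 from limma).

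The remaining genes with the smallest p-values of their lists are given by their log2 differences, none of which passed. In Oct4-MO embryos these were the cofactor Pbx2 (0.47, SE 0.29), Cdx4 (0.31, SE 0.52), the H3K4 methyltransferase Kmt2c (-0.30, SE 0.10), the H3K27 demethylase Kdm6b (0.60, SE 0.32), the Polycomb gene Pcgf5 (-0.98, SE 0.31), the signalling ligand Gdf11 (-0.47, SE 0.21), Irx5 (0.85, SE 0.26) and the Hoxc neighbours Atf7 (1.52, SE 0.47) and Atp5g2 (1.01, SE 0.31). In Ccna2-MO embryos they were Evx1 (-0.37, SE 0.18), Gsx1 (0.36, SE 0.23), the retinoic acid synthase Aldh1a2 (0.92, SE 0.37), Kmt2c (0.22, SE 0.10), the Polycomb gene Phc1 (1.28, SE 0.34), the insulator protein Ctcf (0.18, SE 0.09), Irx3 (-1.99, SE 0.59) and the Hoxc neighbours Calcoco1 (1.45, SE 0.39) and Smug1 (0.89, SE 0.27). Of the oocyte and early embryo genes Zar1, a maternal factor, rose in Ccna2-MO embryos (2.19, SE 0.39, limma's adjusted p = 0.033, blocked 0.042), and in Oct4-MO embryos its difference was 1.85 (SE 0.39, adjusted p = 0.12).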

How the data were processed

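The authors hybridised amplified RNA to Affymetrix Mouse Genome 430 2.0 arrays, normalized the arrays with dChip and deposited 1 linear intensity per probe set. For dChip's options and the array's genome build: not given in the sources used here. Of 45001 probe sets, 64 controls were left out; of the rest, 34849 have 1 gene symbol, 928 several and 9160 none in the platform annotation. Medians were 22.7 to 25.5 per array, with 39.3 to 42.7% of probe sets under 16, and precision is limited by having 3 arrays per group.

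Values were analysed as log2(intensity + 16) with R 4.3.3 and limma 3.58.1: 4 group means over all 12 arrays, eBayes with an intensity trend, and Benjamini-Hochberg adjustment over 44937 probe sets, with calls at 0.05. This was tested on simulated data. Tables were made with Python 3.11.15 and pandas 2.3.3. Promoter sequences and gene order are RefSeq's (GRCm38.p6). The start sequence of 1 further member is not reported here.

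Groups and pairs follow the labels: each uninjected pool came from the collection of its injected pool. Deviations of paired arrays correlated by 0.083, 0.031 and 0.0091 (Oct4) and -0.013, 0.084 and 0.11 (Ccna2). No arrays were identical (correlations 0.912 to 0.966).

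Members and lists were chosen with earlier results of these data known. Named members were those above 100 in a group, those at an unadjusted p under 0.05 in a comparison and the 3 of smallest p per comparison; for lists, the genes that passed and, in each knockdown, the 2 of smallest p were named, those of the marker and olfactory lists left out. Hoxc6, Hoxd1, Hoxd8 and Hoxd13 were named after their values were seen. Alternatives were the pair as a block, controls from both experiments, separate fits of each comparison, no trend and other pseudocounts (1 and 64). The upper part of the probe sets, quantile normalization, an unpaired t-test and array weights were also used. So was median centring, on the median of that upper part. The rest were means of probe sets, a filter on probe set suffixes, other levels (50 and 200) and leaving out each array.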

Additional observations from a re-analysis of the deposited data

How the results depend on the processing

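None of the 11 differences of single members at an unadjusted p under 0.05 changed sign under the alternatives run. The Hox median between the uninjected groups, which was -0.03, did, and was 0.10 (21 of 33 above 0) without replicate 1 of the uninjected embryos of the Ccna2 experiment; in Ccna2-MO embryos it was then 0.05. With the replicate block, which pairs each injected pool with its uninjected pool, 0 Hox genes passed in either knockdown or in their difference. The block changed no call among the Hox genes. At an unadjusted p it gave 2 in Ccna2-MO embryos, where leaving out an array gave 0 to 4. An unpaired t-test with Benjamini-Hochberg adjustment also gave 0 in both knockdowns. The study's own ranking joined such a t-statistic with fold changes and a false discovery rate from permutations, and was not run here. The count of Hox genes that passed in Oct4-MO embryos was 1 (Hoxa9) with all 6 uninjected arrays as controls, and 0 to 1 when an array was left out (1 without Oct4-MO replicate 3). Between the uninjected groups it was 1 (Hoxa13, adjusted p = 0.033 from limma) with array weights. Hoxa9 ranged from 0.47 to 2.18 over the alternatives that measured it in Oct4-MO embryos and Hoxa3 from 0.69 to 2.77. The adjusted p ranged from 0.011 to 0.5 for Hoxa9 and from 0.13 to 0.75 for Hoxa3.

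The number of Hox genes above the background level depended on the level. At 50 it was 4 in Oct4-MO embryos, 2 in Ccna2-MO embryos and 2 in the controls of the latter; at 200 it was 0 in all 4 groups. With all 3 arrays required, the counts for Oct4-MO and its controls were 0 and 0. Leaving out an array gave 0 to 2 in Oct4-MO embryos (0 without replicate 2 or 3) and 0 to 1 in their controls (0 without replicate 1 or 3). Averaging the probe sets of a gene gave 1 in Oct4-MO embryos, and quantile normalization and median centring gave 2 (Hoxa7 and Hoxd9) in Ccna2-MO embryos. Counts above 0 and sums under other settings were added after seeing the data. The low signal of most members limits what these arrays can show. The causes were not tested.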
